A study of Mus musculus with 12 samples.

Results

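Glucose is broken down to pyruvate by glycolysis in the cytosol, pyruvate is either reduced to lactate or carried into mitochondria, and the TCA cycle there oxidizes what the pyruvate dehydrogenase complex delivers. Most steps are run by one of several isozymes, and in nervous tissue the choice of isozyme and the exchange of lactate between glia and neurons through monocarboxylate transporters are classic features of this pathway. The 49 genes described here encode these transporters, enzymes and regulators. They are a list of named genes of the pathway, drawn up with earlier results of these data known, and they include Eno2, the neuron-specific enolase gene, because a promoter of this gene drives the transgene of the mouse model. All 49 were found among the 49548 genes counted in each library, and all 49 were among the 15942 genes with more than 1 CPM (counts scaled in each library to a common total) in at least 3 libraries, which is the set that was tested.

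RNA of the lumbar spinal cord was sequenced from 8 MFN2 animals and 4 WT animals at 30 days of age, all untreated, with 1 library per animal. MFN2 animals are MitoCharc1 mice, hemizygous for the transgene Tg(Eno2-MFN2*R94Q)L51Ugfm on a B6;D2 background, a model of Charcot-Marie-Tooth disease type 2A. They keep both copies of mouse Mfn2 and also express human R94Q MFN2 from the rat Eno2 promoter, mainly in neurons. WT animals carry no transgene. They are labelled C57BL/6, whereas B6;D2 is a mixed background, and the study's methods call its WT animals littermates, so that genotype and strain background cannot be fully told apart from the labels. The libraries are numbered 41 to 43 and 72 to 76 (MFN2) and 44 to 47 (WT). All WT libraries thus share a run of numbers with 3 MFN2 libraries, and in libraries 72 to 76 the number run and the genotype cannot be told apart. What a number run stands for is not given in the sources used here. Total counts ranged from 19359454 to 26738930 per library, and the 49 genes took between 0.780% and 0.880% of them.

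MFN2 library 43 stood apart from the other 11. A list of 10 genes of the forebrain summed to 4770 CPM there and to between 112 and 209 CPM in the other libraries, with Camk2a as its most abundant gene. A list of 8 caudal Hox genes, which mark the lower cord, summed to 42.7 CPM in library 43 and to between 236 and 301 CPM elsewhere. A list of 6 markers of motor neurons, which lie in the ventral cord, summed to 35.5 CPM in library 43 and to between 154 and 370 CPM in the other libraries. In these 3 lists the other 11 libraries stayed within the ranges given. MFN2 library 73 had the highest sums of skeletal muscle markers (305 CPM, against 3.72 to 275 CPM) and of blood markers (333 CPM, led by Hbb-bs, against 68.1 to 202 CPM). Without library 73, 0 of the 49 genes passed the FDR threshold between MFN2 and WT animals, as with it, and 13 rather than 15 did in libraries 72 to 76 against WT. The shares of all genes in the fits without library 73 are not given here, so these counts are not read as results about the 49. The main tests that include library 43 are also given without it.

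The promoters of 4 genes are shown first, because the lactate dehydrogenase genes Ldha and Ldhb, the monocarboxylate transporter gene Slc16a1 and Eno2 carry the main comparisons below. Each sequence is the 250 bases before a RefSeq transcription start on GRCm38.p6, read 5′ to 3′ on the strand of the gene. They are Slc16a1 at chr3:104638414-104638663 (plus strand), Ldha at chr7:46845554-46845803 (plus strand), Ldhb at chr6:142507958-142508207 (minus strand) and Eno2 at chr6:124769674-124769923 (minus strand). Capitals mark ACGTG and GCGTG, the core letters of hypoxia response elements, CACGTG, the E-box, and GGGCGG, the GC box, each searched on both strands.
Slc16a1: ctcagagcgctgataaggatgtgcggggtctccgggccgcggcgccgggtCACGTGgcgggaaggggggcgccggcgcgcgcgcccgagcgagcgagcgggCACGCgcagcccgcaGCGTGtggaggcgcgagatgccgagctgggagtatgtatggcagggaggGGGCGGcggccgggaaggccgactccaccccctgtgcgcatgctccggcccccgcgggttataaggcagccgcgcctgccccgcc
Ldha: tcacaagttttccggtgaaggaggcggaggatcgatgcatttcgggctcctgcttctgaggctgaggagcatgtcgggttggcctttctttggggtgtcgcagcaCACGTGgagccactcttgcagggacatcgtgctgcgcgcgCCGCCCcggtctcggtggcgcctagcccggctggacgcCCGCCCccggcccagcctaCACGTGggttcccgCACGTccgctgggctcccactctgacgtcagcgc
Ldhb: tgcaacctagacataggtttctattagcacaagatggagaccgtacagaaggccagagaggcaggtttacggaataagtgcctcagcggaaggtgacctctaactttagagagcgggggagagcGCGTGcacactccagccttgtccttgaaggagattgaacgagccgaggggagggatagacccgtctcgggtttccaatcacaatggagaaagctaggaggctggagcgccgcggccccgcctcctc
Eno2: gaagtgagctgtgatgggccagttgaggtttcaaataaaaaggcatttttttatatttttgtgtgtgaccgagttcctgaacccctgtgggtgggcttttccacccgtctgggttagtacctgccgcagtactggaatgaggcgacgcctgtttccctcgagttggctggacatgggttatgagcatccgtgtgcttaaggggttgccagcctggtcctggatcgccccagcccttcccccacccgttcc

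The window of Ldha held 5 matches to ACGTG, of which 4 lie inside its 2 copies of CACGTG, because CACGTG reads the same on both strands and contains ACGTG on each. It also held 2 matches to GGGCGG. A second RefSeq start of Ldha, with its window at chr7:46846832-46847081, held only 1 match to GCGTG. The window of Ldhb held 1 match to GCGTG and 0 to the other motifs. Slc16a1 held 2 matches to ACGTG, both in 1 copy of CACGTG, 2 to GCGTG and 1 to GGGCGG, and Eno2 held 0 of any. Across the 32851 mouse promoters in the table, 16.6% held ACGTG, 28.2% GCGTG, 6.02% CACGTG and 32.7% GGGCGG. The 68 promoters listed for 46 of the 49 genes held them in 39.7%, 50.0%, 14.7% and 51.5%. A match is only a run of letters, and binding was not measured.

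Levels were compared between genes per 1000 bases of the principal transcript (RPKM, mean ± SD of the 4 WT libraries). The study's methods name the sequencing of mRNA ends in a heading but a total RNA kit in the text. How evenly reads covered transcripts was not tested, and levels per length depend on it. Aldoa, an aldolase, stood at 498 ± 34.7 RPKM and Pkm, the last enzyme of glycolysis, at 427 ± 37.0. Ldhb, the heart-type lactate dehydrogenase subunit that favours the use of lactate, followed at 394 ± 27.5, and Gapdh at 345 ± 42.9. These 4 were the most abundant of the 49, and the intervals of 1 SD of neighbours in this order overlap. The length chosen matters for Gapdh, whose annotated exons merge to a much longer model and give 119 RPKM, against 328 for Ldhb and 258 for Aldoa by the same rule. Among the genes listed with the TCA cycle, the malate dehydrogenases led, with Mdh1 (cytosolic) at 201 ± 14.9 and Mdh2 (mitochondrial) at 176 ± 5.93 RPKM. Mdh1 is counted with the TCA cycle genes throughout, although its enzyme lies outside mitochondria and so outside the cycle itself.

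Isozymes of a family differed in level. Hexokinase 1 stood at 59.4 ± 3.02 RPKM and hexokinase 2 at 0.99 ± 0.17. Of the phosphofructokinases, Pfkm stood at 109 ± 2.49, Pfkp at 50.1 ± 2.29 and Pfkl at 16.0 ± 1.96 RPKM. The enolases ran from Eno2 at 209 ± 13.8 through Eno1 at 134 ± 7.89 to the muscle form Eno3 at 2.34 ± 1.04. These spacings were wider than the spread between WT animals in each family. Ldha, the muscle-type subunit, reached 26.04 ± 1.68 RPKM, far under Ldhb. At the low end, the lactate exporter Slc16a3 stood at 0.35 ± 0.16 RPKM, and the muscle phosphoglycerate mutase Pgam2 at 1.42 ± 1.63, an SD above its mean. Pgam2 and Eno3 were highest among WT animals in library 47 (3.13 and 6.05 CPM) and highest among MFN2 libraries 72 to 76 in library 73 (3.31 and 5.02 CPM). Libraries 47 and 73 are also those in which a list of 8 skeletal muscle markers summed to 275 and 305 CPM, against 3.72 to 78.5 CPM in the other 10. Pgam2 was highest of all in library 43, at 7.55 CPM, where the muscle markers summed to only 21.4 CPM. The most abundant muscle marker was Myh4, none of the 8 was at 0 in every library, and the part of muscle RNA in these levels was not tested.

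The first question was whether the mutant transgene went with a different level of these transcripts. Between 8 MFN2 and 4 WT animals, 0 of the 49 genes passed an FDR of 0.05 by the quasi-likelihood method of edgeR, and 0% of all genes tested passed. At an unadjusted p under 0.05 there were 9 of the 49, all lower in MFN2 animals, against 15.0% of all genes tested (7.57% lower and 7.40% higher), so that the total of 9 genes (18.4%) lay near the background. The split of 9 lower and 0 higher moved with the processing, to 4 lower and 2 higher with library size alone as the scale and to 10 lower and 4 higher with the number run as a covariate. The shares of all genes under these 2 settings are not given here, so the moved splits are not read as results about the 49. The 9 were Slc16a1, Pfkm, Pkm, Ldhb, Pdhb, Pdk2, Pcx, Cs and Suclg2. Without library 43, 0 of 49 passed the FDR threshold, against 0.119% of all genes (0.0376% higher and 0.0815% lower). At an unadjusted p under 0.05, 12 were then lower and 1, Slc2a3, was higher, against 21.1% of all genes (10.4% lower and 10.7% higher). In all, 33 of the 49 fold changes were negative and 16 positive, with a median log2 fold change of -0.04, beside 0.0038 for all genes tested. Without library 43, 32 were negative and 17 positive, with a median of -0.05. When counts were scaled by library size alone, the median of the 49 turned to 0.010, while that of all genes moved to 0.054.

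Slc16a1 encodes the monocarboxylate transporter MCT1, which carries lactate and pyruvate across cell membranes (gene at chr3:104638668-104658462). Its level was 105, 94.8, 94.6 and 102 CPM in WT libraries 44 to 47. It was 87.0, 73.5 and 67.6 CPM in MFN2 libraries 41 to 43 and 73.8, 84.8, 75.6, 79.4 and 90.7 CPM in libraries 72 to 76. Every MFN2 library lay below every WT library, in both runs of numbers. The log2 fold change was -0.33 ± 0.079 (SE; edgeR, unadjusted p = 0.00118, adjusted p = 0.254), and without library 43 it was -0.30 (adjusted p = 0.0759). DESeq2 called it, at -0.32 with an adjusted p of 0.0213, in a test that called 1.26% of all genes. In bulk tissue, fewer cells of a type and less RNA per cell cannot be told apart.

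Ldhb (chr6:142490249-142507957) gave the other call by DESeq2. WT libraries held 477, 519.6, 561 and 499 CPM. MFN2 libraries 41 to 43 held 465, 477 and 328 CPM, and libraries 72 to 76 held 407, 391, 397, 392 and 394 CPM. The groups did not overlap, but library 42 lay just under WT library 44, and the 5 libraries of the second run were the tightest set (396 ± 6.31 CPM, SD, n = 5) against 514 ± 35.9 in WT (n = 4). The log2 fold change was -0.34 ± 0.089 (edgeR, unadjusted p = 0.0022, adjusted p = 0.254). In DESeq2 it was -0.33 with an adjusted p of 0.0472, and without library 43 edgeR gave -0.30 (adjusted p = 0.0786).

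Cs, citrate synthase, opens the TCA cycle (chr10:128337734-128362479). Its level was 225, 216, 224 and 215 CPM in WT libraries, 212, 210.2 and 189.6 CPM in MFN2 libraries 41 to 43, and 199, 190.4, 184, 195 and 205 CPM in libraries 72 to 76. Again the groups did not overlap, by a margin smaller than the WT SD of 5.16 CPM. The log2 fold change was -0.15 ± 0.054 (edgeR, unadjusted p = 0.0153, adjusted p = 0.278), and without library 43 it was -0.14 (adjusted p = 0.148). Slc16a1, Ldhb and Cs were the 3 of 49 genes whose groups did not overlap, all lower in MFN2 animals, where 1.07% of all genes tested lay wholly lower and 0.979% wholly higher. They were also the 3 genes without overlap when library 43 was left out, against 1.48% of all genes lower and 1.37% higher. With library size alone as the scale, 2 of them, Slc16a1 and Ldhb, still did not overlap.

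**Figure D1:**
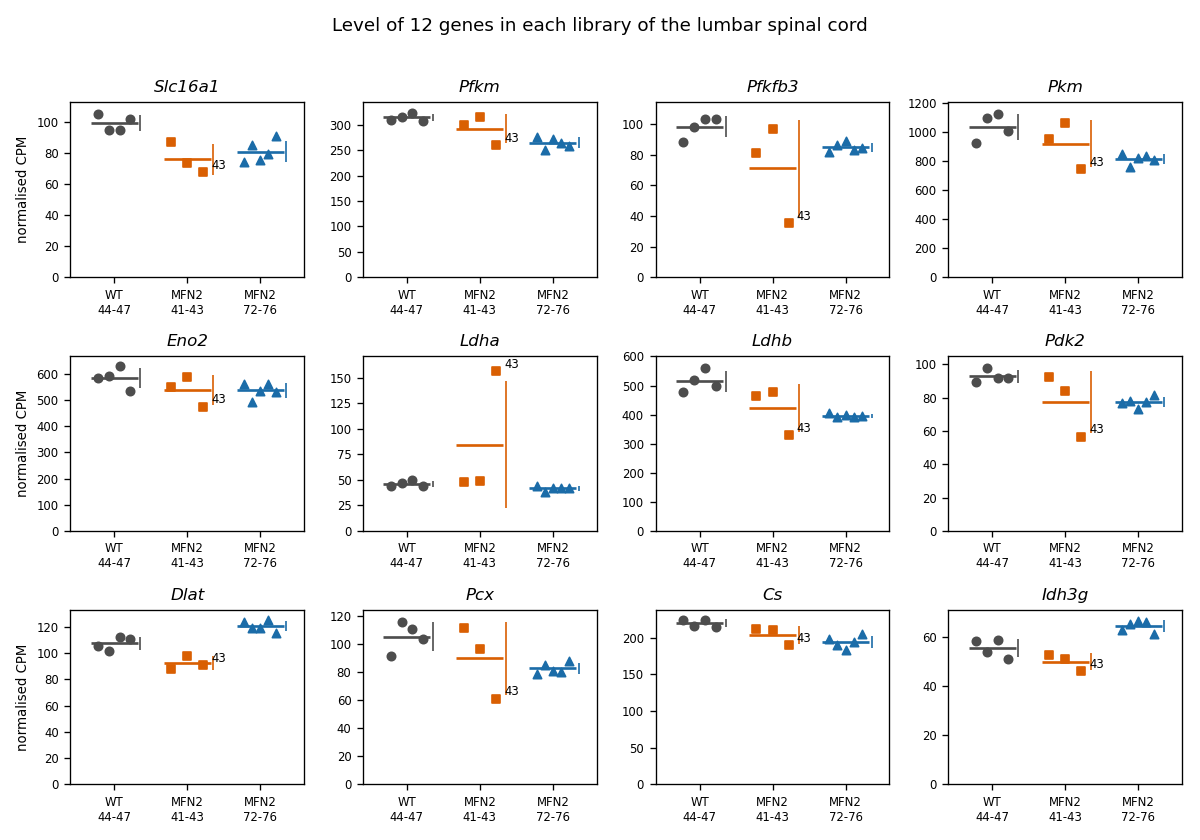
Normalised CPM (y axis, from 0) of 12 genes in each library, with WT libraries 44 to 47, MFN2 libraries 41 to 43 and MFN2 libraries 72 to 76 on the x axis. Points are libraries, horizontal lines means and vertical lines 1 SD; library 43 is labelled. Slc16a1, Ldhb and Cs lie lower in all 8 MFN2 libraries than in the 4 WT libraries, while Dlat and Idh3g lie above WT only in libraries 72 to 76.

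Eno2 itself (chr6:124760053-124769673), whose rat promoter drives the transgene, was 584, 593, 629 and 535 CPM in WT libraries. It was 549, 589 and 474 CPM in MFN2 libraries 41 to 43 and 562, 494, 536, 563 and 529.8 CPM in libraries 72 to 76. The ranges overlapped, with library 43 lowest, and the log2 fold change was -0.12 ± 0.068 (edgeR, adjusted p = 0.392). Without library 43 the change of Eno2 was -0.10 ± 0.057 (adjusted p = 0.330). The neuronal marker list, led by Snap25, summed to between 2910 and 3285 CPM in WT libraries and to between 2748 and 3203 CPM in MFN2 libraries.

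In the remaining steps of glycolysis, Pfkm and Pkm were lower at an unadjusted p under 0.05 and Aldoa was not. Pfkm, the muscle-type phosphofructokinase, was 310.2, 316, 324 and 308 CPM in WT libraries, and in MFN2 libraries its lowest, median and highest levels were 249.7, 268 and 315 CPM (log2 fold change -0.20 ± 0.067, adjusted p = 0.278). Library 42 reached the WT range and the other 7 lay below it, and without library 43 the change of Pfkm was -0.18 ± 0.063 (adjusted p = 0.141). Pkm was 925, 1098, 1122 and 1007 CPM in WT libraries and 743, 828 and 1061 CPM (lowest, median, highest) in MFN2 libraries, at -0.28 ± 0.095 (adjusted p = 0.278). For Pkm, libraries 41 and 42 lay within the WT range and the other 6 below it, and the change without library 43 was -0.26 ± 0.086 (adjusted p = 0.139). Aldoa was 718, 787, 807 and 699 CPM in WT libraries and 655, 723 and 855 CPM in MFN2 libraries, at -0.03 ± 0.076, and at -0.06 ± 0.062 without library 43. The genotypes overlapped throughout for Aldoa, and the sign of its change turned positive when counts were scaled by library size alone.

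Pfkfb3, which makes the fructose 2,6-bisphosphate that activates phosphofructokinase, was 88.5, 98.1, 103 and 103 CPM in WT libraries. In MFN2 libraries its lowest, median and highest levels were 35.4, 83.4 and 96.4 CPM, at -0.30 ± 0.19 (adjusted p = 0.441), and without library 43, which held the lowest level, the change was -0.19 ± 0.060 (adjusted p = 0.127). Gapdh was 516, 454, 562 and 427 CPM in WT libraries and 313, 420.4 and 538 CPM in MFN2 libraries, at -0.21 ± 0.14 (adjusted p = 0.472). For Gapdh, often used as a reference gene, the genotypes overlapped and the 3 MFN2 libraries 41 to 43 lay inside the WT range, at 510.2, 469 and 538 CPM. Without library 43 the change of Gapdh was -0.27 ± 0.13 (adjusted p = 0.252), and with the number run as a covariate its sign turned, to 0.045.

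At the entry of pyruvate into mitochondria, Pdk2, a kinase that switches off pyruvate dehydrogenase, was 89.2, 98.0, 92.1 and 91.8 CPM in WT libraries and 56.6, 77.6 and 92.4 CPM in MFN2 libraries (-0.26 ± 0.099, edgeR adjusted p = 0.285). Library 41 alone reached the WT range, and without library 43 the change of Pdk2 was -0.21 ± 0.062 (adjusted p = 0.122). Pcx, pyruvate carboxylase, which in brain works mainly in astrocytes, was 91.7, 116, 111 and 104 CPM in WT libraries and 61.3, 83.2 and 112 CPM in MFN2 libraries (-0.30 ± 0.13, adjusted p = 0.302). Libraries 41 and 42 lay within the WT range and the other 6 below it, and without library 43 the change of Pcx was -0.25 ± 0.095 (adjusted p = 0.174). Pdha1, the catalytic subunit of pyruvate dehydrogenase, was 222 ± 14.5 CPM in WT (SD, n = 4) and 220 ± 10.04 CPM in MFN2 animals (n = 8), at -0.02 ± 0.058, and at -0.02 ± 0.054 without library 43. The change of Pdha1 was smaller than its error, and its sign turned with library size alone.

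In the TCA cycle, Suclg2, the GTP-forming succinyl-CoA ligase subunit, was 17.7, 17.6, 15.5 and 14.3 CPM in WT libraries and 12.5, 13.7 and 15.9 CPM in MFN2 libraries (-0.23 ± 0.089, adjusted p = 0.289), and the change without library 43 was -0.21 ± 0.089 (adjusted p = 0.199). Mdh1 was 427 ± 31.7 CPM in WT and 416 ± 32.7 CPM in MFN2 animals, at -0.04 ± 0.073 (adjusted p = 0.810), and at -0.02 ± 0.064 without library 43. Both genes overlapped between the genotypes, and the sign of Mdh1 turned with library size alone.

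The 3 MFN2 libraries that share the number run of WT gave 0 of 49 genes past the FDR threshold, where 0.00627% of all genes tested passed, and 3 of 49 at an unadjusted p under 0.05 (1 higher and 2 lower), against 7.20% of all genes (5.35% higher and 1.85% lower). Those 3 were Pfkl, which was higher (0.41 ± 0.17), and Slc16a1 (-0.37 ± 0.10) and Dlat (-0.20 ± 0.082), which were lower. All 3 libraries lay below all WT libraries in 9 of 49 genes and above them in 0, where 4.28% of all genes lay wholly lower and 4.53% wholly higher. Among the 9 were Slc16a1, Ldhb, the pyruvate carrier subunit Mpc2 and the pyruvate dehydrogenase subunits Dlat and Dld. The others were Cs, Ogdh, Suclg1 and Mdh1, listed with the TCA cycle. In each of the 12 TCA cycle genes the log2 fold change was negative, between -0.19 (Fh1) and -0.09 (Mdh2), with a median of -0.15 beside -0.0021 for all genes tested. None of the 12 passed an unadjusted p of 0.05, and library 43 was the lowest of all 12 libraries in 10 of them.

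With libraries 41 and 42 alone against WT, 0 of 49 genes passed the FDR threshold, where 0.00627% of all genes did. At an unadjusted p under 0.05, 2 genes were lower and 0 higher, against 5.67% of all genes. The 2 were Slc16a1 (-0.29 ± 0.089) and Dlat (-0.20 ± 0.082), and Pfkl was at 0.19 ± 0.11 (unadjusted p = 0.112). The same 9 genes lay wholly below WT, now against 7.51% of all genes lower and 7.20% higher. Of the 12 TCA cycle genes, 10 were lower and 2 higher, with a median of -0.06 in place of -0.15. The unadjusted count also moved in other ways, to 1 lower and 5 higher without library 41, 6 lower and 4 higher without library 42, and 10 lower and 4 higher with the 3 groups in 1 fit. The shares of all genes in these 3 fits are not given here, so these splits are not read as results about the 49.

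Libraries 72 to 76 against WT gave 15 of 49 genes past the FDR threshold (30.6%), where 23.5% of all genes tested passed. Lower were 11 of the 15, against 12.2% of all genes lower, and higher were 4, against 11.4%. At an unadjusted p under 0.05 there were 14 lower and 7 higher, against 37.5% of all genes (18.7% lower and 18.9% higher). The groups did not overlap in 9 genes that were lower and 5 that were higher, against 10.2% and 9.43% of all genes. The median log2 fold change of the 49 was -0.08, beside 0.0045 for all genes. With library size alone as the scale, the 15 calls split into 8 higher and 7 lower, and the median of all genes moved to 0.070. The shares of all genes called higher and lower on that scale are not given here, so this split is not read as a result about the 49. With the 3 groups in 1 fit over all 12 libraries, 4 of 49 were called (Pfkm, Pkm and Ldhb lower, Idh3a higher), against 7.68% of all genes. Because all WT libraries belong to the other number run, these differences are between sets of libraries that differ in genotype and in run.

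By role, the 25 genes from transport to lactate held 6 of the calls (24%), near the 23.5% of all genes called. All 6 were lower, where 12.2% of all genes were called lower and 11.4% higher. Ldhb fell by 0.37 on the log2 scale (SE 0.051, adjusted p = 0.000663), and Pkm fell by 0.35 (SE 0.062, adjusted p = 0.00252). Gapdh fell by 0.39 with a wider SE of 0.11 (adjusted p = 0.0342). Pfkm fell by 0.25, Pfkfb3 by 0.21 and Slc16a1 by 0.29, each with an adjusted p of at most 0.0151 and with SEs from 0.047 to 0.063. Every one of libraries 72 to 76 lay below all WT libraries for Slc16a1, Pfkm, Gapdh, Pkm and Ldhb, and 4 of 5 did for Pfkfb3. The low end of Gapdh came from libraries 75 and 76, at 319.6 and 313 CPM against 397 to 426 in the other 3.

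Among the 12 genes of pyruvate entry, Pcx fell by 0.35 (SE 0.065, adjusted p = 0.00317), Pdk2 fell by 0.26 (SE 0.047, adjusted p = 0.00269) and Pdk1, another kinase of the complex, fell by 0.30 (SE 0.072, adjusted p = 0.0117). In the same complex, Dlat, its acetyltransferase core, and Pdhx, which anchors the third enzyme to that core, rose. Dlat was 105, 101, 112 and 111 CPM in WT libraries and 123, 119, 119, 125 and 115 CPM in libraries 72 to 76, a log2 fold change of 0.17 ± 0.049 (adjusted p = 0.0261). Pdhx was 46.8, 44.3, 49.8 and 47.1 CPM in WT and 51.8, 49.9, 53.7, 51.2 and 54.9 CPM in libraries 72 to 76, at 0.16 ± 0.052 (adjusted p = 0.0426). The remaining 7 genes of this step did not pass, among them Pdk4, a kinase that responds to fasting, whose level ranged from 4.41 to 11.1 CPM in libraries 72 to 76.

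In the TCA cycle, Cs fell by 0.17 (SE 0.046, adjusted p = 0.0173) and Suclg2 fell by 0.26 (SE 0.089, adjusted p = 0.0488), while 2 subunits of NAD-dependent isocitrate dehydrogenase rose. Idh3a, the catalytic subunit, was 206 ± 11.6 CPM in WT and 239 ± 8.70 CPM in libraries 72 to 76, at 0.22 ± 0.052 (adjusted p = 0.0110). Idh3g, a regulatory subunit, was 58.5, 54.0, 58.8 and 51.3 CPM in WT and 62.8, 65.4, 66.7, 66.4 and 61.5 CPM in libraries 72 to 76, at 0.22 ± 0.054 (adjusted p = 0.0131). Idh3b, the remaining subunit, was at -0.06 ± 0.058 (adjusted p = 0.516). With the 3 groups in 1 fit, Idh3a still passed (adjusted p = 0.0413) and Idh3g did not (adjusted p = 0.0548).

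**Figure D2:**
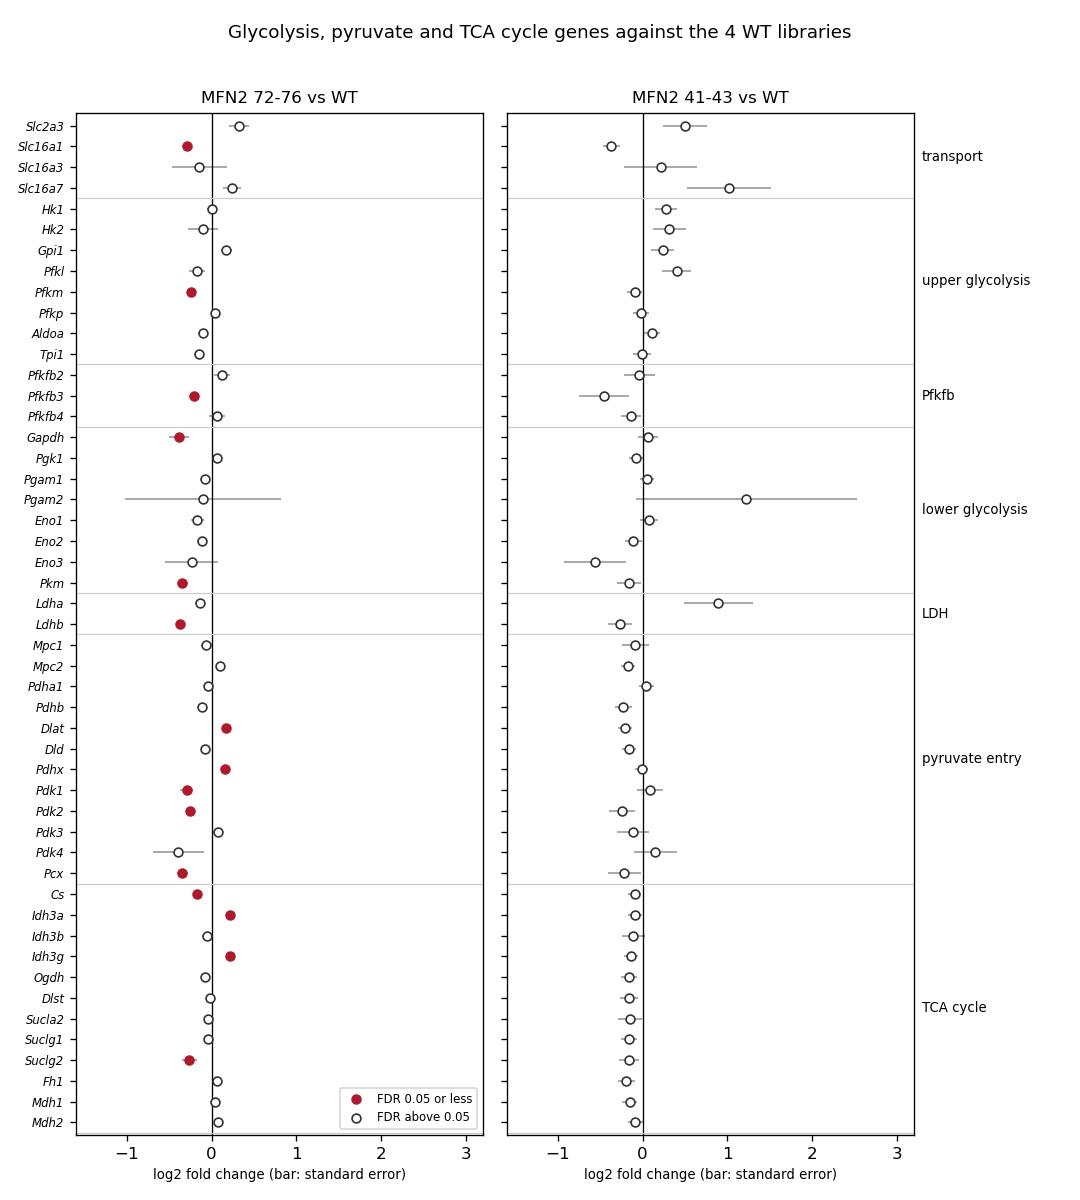
Log2 fold change against the 4 WT libraries (x axis) with its standard error for each of the 49 genes, in order of their role (y axis), for MFN2 libraries 72 to 76 (left) and 41 to 43 (right). Filled points have an FDR of 0.05 or less, 15 on the left and 0 on the right, and error bars are wider on the right for Ldha, Slc16a7 and Pfkfb3.

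Cell type markers differed between the same libraries. In libraries 72 to 76 against WT, 4 of 6 astrocyte markers passed the FDR threshold as lower (Gfap, Aldh1l1, Gja1 and Fgfr3), where 23.5% of all genes passed and 12.2% passed as lower. The list, with Gfap its most abundant gene, summed to between 2121 and 3308 CPM against 3641 to 4668 CPM in WT. Of the 6 microglia markers, 5 passed as lower, with sums of 80.0 to 103 CPM against 107 to 144 CPM in WT and Csf1r as the most abundant gene. Of the 7 neuron markers, Syt1 and Gad1 passed as higher, where 11.4% of all genes did, and 0 passed as lower. Fold changes of the 7 were positive in 4 and negative in 3, with a median log2 fold change of 0.06. Snap25, the most abundant, was at 1575 ± 61.5 CPM against 1785 ± 148 CPM in WT (SD). The neuron list summed to between 2748 and 3075 CPM against 2910 to 3285 CPM in WT. In MFN2 libraries 41 to 43 the sums were 5053, 2938 and 1621 CPM for astrocytes and 168, 105 and 169 CPM for microglia. No marker of either list was at 0 in every library. The part of these markers in the lower levels of Pcx, Ldhb or any other enzyme was not tested.

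Direct comparison within MFN2 animals tested whether the 2 sets of libraries differed. Libraries 72 to 76 passed the FDR threshold against 41 to 43 as higher in 3 of 49 genes and as lower in 0, where 2.29% of all genes tested passed (1.15% higher and 1.14% lower). The 2 sets did not overlap in 9 genes higher and 6 lower in libraries 72 to 76, against 9.62% and 8.59% of all genes, and 7 were higher and 5 lower at an unadjusted p under 0.05, against 24.5% of all genes (10.9% higher and 13.5% lower). The 3 were Dlat (log2 difference 0.38 ± 0.066, adjusted p = 0.0326), Idh3g (0.36 ± 0.069, adjusted p = 0.0443) and Idh3a (0.31 ± 0.066, adjusted p = 0.0499). Dlat was 87.6, 97.8 and 90.9 CPM in libraries 41 to 43, below every WT library, and Idh3g was 52.9, 51.1 and 46.3 CPM, of which the lower 2 lay below every WT library. Against WT, Dlat, Idh3g and Idh3a were at -0.20, -0.14 and -0.09 in libraries 41 to 43, none past the FDR threshold, and at 0.17, 0.22 and 0.22 in libraries 72 to 76; the 2 comparisons share the WT libraries. The count of 3 became 0 when any one of libraries 41, 42 and 72 to 76 was left out. Without library 43, 9 of 49 genes (18.4%) were called, where 14.6% of all genes were. Higher in libraries 72 to 76 were Mpc2 (0.24), Dlat (0.37), Idh3a (0.29) and Idh3g (0.31), and lower were Pfkl, Pfkm, Pkm, Ldhb and Pcx. For Slc16a1 and Ldhb, which lay below WT in both sets, the difference between the sets was 0.08 ± 0.10 (adjusted p = 0.665) and -0.10 ± 0.12 (adjusted p = 0.622). Without library 43 it was 0.0082 ± 0.088 for Slc16a1 (adjusted p = 0.962), and for Ldhb it became a call, at -0.25 ± 0.055 (adjusted p = 0.0133).

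The ratio of isozymes within a library does not depend on how libraries are scaled. For 6 pairs, the log2 ratio was compared between genotypes by a two-sided exact permutation test. MFN2 libraries 72 to 76 have no WT library in their number run, so tests that include them do not separate genotype from run. The log2 ratio of Ldhb to Ldha was 3.45, 3.48, 3.49 and 3.50 in WT libraries 44 to 47. It was 3.26, 3.29 and 1.07 in MFN2 libraries 41 to 43 and 3.21, 3.36, 3.23, 3.21 and 3.23 in libraries 72 to 76. All 8 MFN2 libraries lay below all 4 WT libraries, which spread by only 0.021 (SD), and library 43 lay far from the rest. With all 12 libraries the difference of -0.50 had an exact p of 0.283 (0.566 adjusted over the 6 ratios), since a single library carries most of the spread. Without library 43, the difference was -0.22, with an exact permutation p of 0.00303, the smallest that 330 splits allow, and 0.0182 adjusted over the 6. Between libraries 41 to 43 and WT alone, the difference was -0.94 (exact p = 0.0286, the smallest that 35 splits allow), and with libraries 41 and 42 alone it was -0.20 (exact p = 0.0667, the smallest that 15 splits allow). Against WT, Ldhb passed the FDR threshold in libraries 72 to 76 and Ldha in neither run. Between the 2 sets of MFN2 libraries, the difference of Ldha did not pass (edgeR, adjusted p = 0.136, and 0.0556 without library 43). In libraries 41 and 42 against WT, Ldhb was at -0.12 ± 0.081 and Ldha at 0.09 ± 0.081, neither past the FDR threshold (adjusted p = 0.917 and 0.942), with Ldha at 48.3 and 48.7 CPM. In libraries 72 to 76 Ldhb fell by 0.37, while Ldha, at 37.9 to 43.9 CPM against 43.5 to 49.9 CPM in WT, was at -0.14 ± 0.061 (adjusted p = 0.114).

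**Figure D3:**
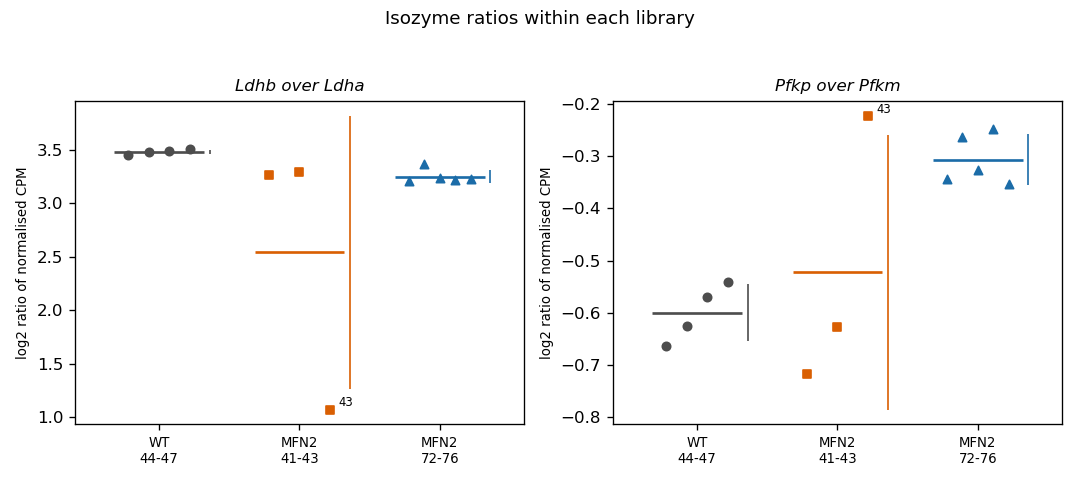
Log2 ratio of normalised CPM of Ldhb to Ldha (left) and of Pfkp to Pfkm (right) in each library (y axes, not from 0), by set of libraries on the x axis, with the mean (horizontal line) and 1 SD (vertical line). For Ldhb over Ldha the WT libraries sit between 3.45 and 3.50, 7 MFN2 libraries between 3.21 and 3.36, and library 43 at 1.07.

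For Pfkp over Pfkm, the ratio rose from -0.60 ± 0.055 in WT to -0.39 ± 0.18 in MFN2 animals on the log2 scale, a difference of 0.21 that missed the threshold (exact permutation p = 0.0545, 0.327 adjusted over the 6), and without library 43 the difference was 0.19 (exact permutation p = 0.0758). Libraries 72 to 76 lay between -0.35 and -0.25, all above WT, whereas library 41, at -0.72, lay below and library 42, at -0.63, within the WT range of -0.66 to -0.54, and library 43 was highest at -0.22. The ratios of Pfkl to Pfkm, Eno2 to Eno1, Hk2 to Hk1 and Pgam2 to Pgam1 differed by 0.23, -0.03, -0.05 and 0.29, with exact permutation p-values of 0.265, 0.802, 0.762 and 0.752. Without library 43 these differences were 0.11, 0.04, -0.03 and -0.14, with exact permutation p-values of 0.215, 0.685, 0.882 and 0.888, so that the differences of Eno2 to Eno1 and of Pgam2 to Pgam1 changed sign. The log2 ratio of Pfkl to Pfkm was -1.38 in library 43 and between -2.44 and -2.10 in the other 7 MFN2 libraries. Eno1, the widely expressed enolase, was lowest in libraries 72 and 74, at 226 and 205 CPM against 249 to 318 CPM in the other 10. These 2 libraries also held the highest counts of Eno1b, a near-identical copy of Eno1, at 16.0 and 15.3 CPM against 2.51 to 4.41 elsewhere, and how reads were divided between the pair was not tested. The sum of Eno1 and Eno1b was also lowest in libraries 72 and 74, at 242 and 220.0 CPM against 253 to 322 CPM in the other 10.

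Library 43 was the lowest of the 12 for 24 of 49 genes (49.0%), where 28.7% of all genes tested were lowest there, and the highest for 13 (26.5%), near the 25.9% of all genes. In the TCA cycle 10 of 12 genes were lowest in library 43 and 0 highest, with a median log2 difference from the WT mean of -0.34, beside -0.04 for the mean of the other 7 MFN2 libraries. In upper glycolysis 6 of 8 genes were highest in library 43 and 0 lowest, with a median of 0.23 beside -0.03. These shares describe 1 animal, whose forebrain and Hox markers also stood apart, and were not tested.

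Single genes moved further in that library. Ldha was 156 CPM, 3.40 times the WT mean, against 37.9 to 49.9 CPM in the other 11. Slc16a7, the transporter MCT2 of neurons, was 79.2 CPM, 3.997 times the WT mean, against 16.8 to 26.5 CPM. Slc2a3, the neuronal glucose transporter GLUT3, was 133 CPM against 57.5 to 95.04 CPM. Pfkfb3, by contrast, was 35.4 CPM against 81.1 to 103 CPM in the others, and Sucla2, the ATP-forming succinyl-CoA ligase subunit, was 127 CPM against 171 to 195 CPM.

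**Figure D4:**
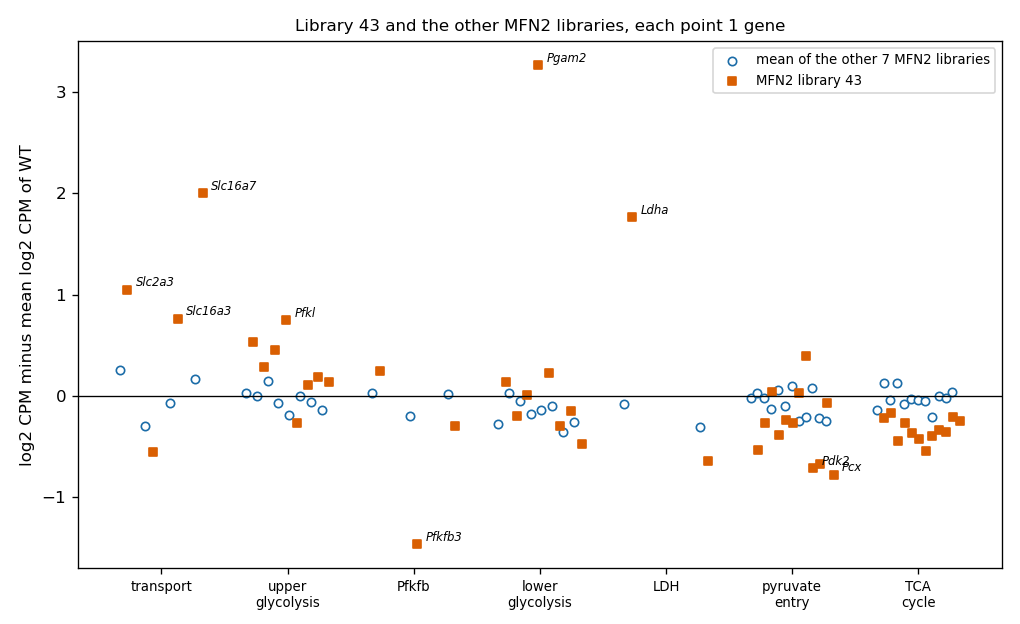
Log2 CPM minus the mean log2 CPM of the 4 WT libraries (y axis) for each of the 49 genes, grouped by role on the x axis, for library 43 (squares) and the mean of the other 7 MFN2 libraries (open circles). Squares of the TCA cycle lie below 0 and those of Slc2a3, Slc16a7, Ldha and Pgam2 above 1, while the circles stay near 0.

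**Figure D5:**
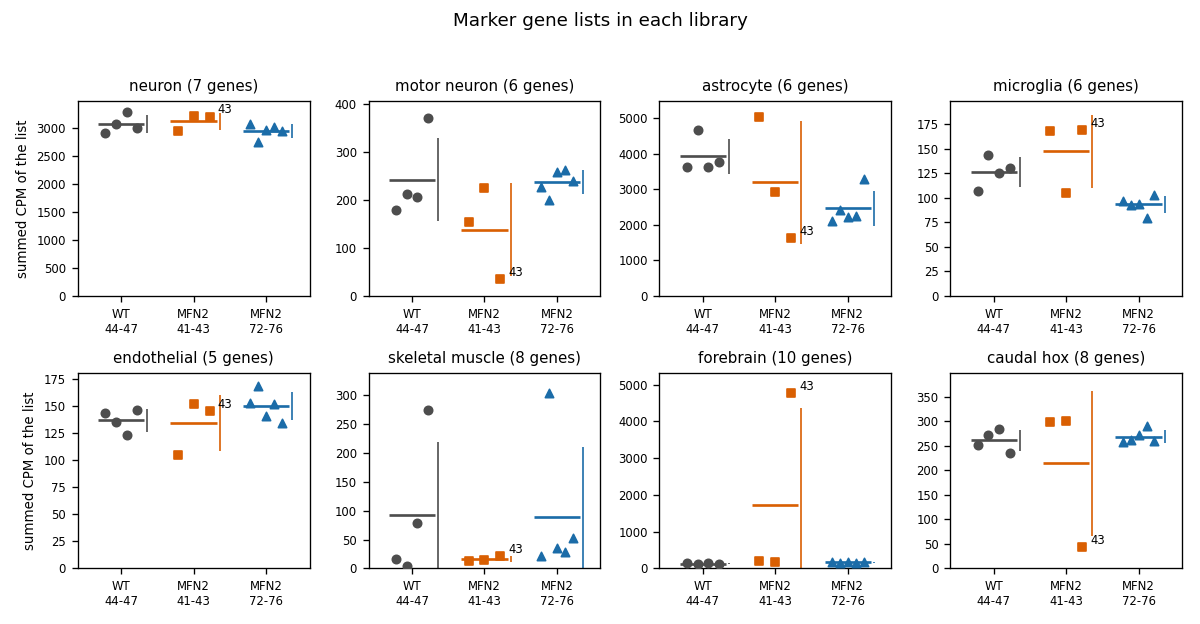
Summed CPM (y axis, from 0) of 8 lists of cell type markers in each library, by set of libraries on the x axis, with the mean (horizontal line) and 1 SD (vertical line). Microglia sums are lowest in libraries 72 to 76, and in library 43 the forebrain sum is 4770 CPM and the caudal Hox sum 42.7 CPM.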

How the data were processed

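Lumbar spinal cord libraries (SMARTer chemistry, paired-end reads, NextSeq) were trimmed and aligned by the authors with STAR to GRCm38.p6, and the authors deposited raw counts per Ensembl gene, not normalized, 1 library per animal. P-values measure the spread between these animals. How reads were counted, and with which strand setting, is not given in the sources used here, so overlapping and antisense genes and near-identical copies are uncertain. Symbols came from GENCODE M21 (49289 of 49548 identifiers). Genes above 1 CPM in at least 3 of the 12 libraries were normalized by TMM, and edgeR 4.0.16 was run (quasi-likelihood F test, legacy form, robust) in R 4.3.3, with Benjamini-Hochberg adjustment over all 15942 genes at 0.05. SEs were derived from the F statistic. Log2 ratios used a prior count of 2. DESeq2 1.42.0 and limma 3.58.1 were alternatives. The fits were run on simulated data in which the changes were larger than most of those described here. Power at smaller changes was not checked. In chi-square tests of counts over the tested genes, each of the 34 pairs of replicates differed by more than sampling noise (chi-square at least 5.34 times its degrees of freedom).

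The 49 genes, the marker lists and the tests were chosen with earlier results of these data known. Genes given in full were Eno2 and, per role, the gene of lowest p, the most abundant, and the largest rise and fall called in libraries 72 to 76. Others were named after their values were seen. Promoters are from RefSeq. Human MFN2 was not analysed here, and 2 of the marker lists are not reported here.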

Additional observations from a re-analysis of the deposited data

Results flagged for a closer look

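A library was singled out where its gap to the nearest other library of its genotype, divided by the range of the group, both on log2 CPM, passed Dixon's critical value. This held in 13 of 98 checks (49 genes in 2 genotypes), where chance gives about 4.9, or 1 in 20. Library 43 accounted for 11 of the 13. On CPM without logs, a scale added after the data were seen, it held in 15 checks, 14 of them library 43. It was high for Slc16a7 (0.706), Ldha (0.823) and Pdk1 (0.542). It was low for Pfkfb3 (0.827), Pdhb (0.530) and Pdk3 (0.721). In the TCA cycle it was low for Idh3b (0.608), Ogdh (0.708), Dlst (0.772), Sucla2 (0.723) and Suclg1 (0.719). Ogdh and Dlst belong to the 2-oxoglutarate dehydrogenase complex, and Sucla2 and Suclg1 to succinyl-CoA ligase, the step after it. The remaining 2 were Pfkfb2, low in MFN2 library 41 (0.586), and Mdh1, high in WT library 46 (0.900).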

How the results depend on the processing

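Between MFN2 and WT animals, 0 of the 49 genes were called in the alternatives other than DESeq2, which called 2, and when each library was left out. The genes lower at an unadjusted p under 0.05, 9 in all, ranged from 6 to 12 with a library left out, and those higher, 0 in all, from 0 to 2. Of these fits, the share of all genes is given here only for the one without library 43. For libraries 72 to 76 against WT, the 15 calls fell to 4 with the 3 groups in 1 fit and ranged from 11 to 16 with a library left out. Calls among all genes fell from 3753 to 1224 in that fit and ranged from 2355 to 4517 with a library left out. For libraries 41 to 43 against WT the count stayed 0 throughout. Between the 2 sets of MFN2 libraries, the 3 calls became 9 in DESeq2 (6 higher), 1 without a filter (lower), 1 with filterByExpr, 2 with DESeq2's size factors and 7 with the 3 groups in 1 fit (5 higher), and ranged from 0 to 9 with a library left out, where 9 was without library 43. Calls among all genes moved too, from 365 to 1775, 342, 286, 304 and 1339 in these alternatives and to between 26 and 2325 with a library left out, with 2325 without library 43. The cause of these shifts was not tested.

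Signs turned in these cases. With library size alone, MFN2 against WT gave 0.010 for the median of the 49, 0.022 for Aldoa, 0.034 for Pdha1 and 0.014 for Mdh1. With the library run as a covariate, Aldoa was 0.090, Gapdh 0.045 (from -0.21), Pdha1 0.029, Dlat -0.22 and Idh3g -0.15. With a library left out, Aldoa ranged from -0.062 to 0.0082, Pdha1 from -0.043 to 0.026 and Mdh1 from -0.060 to 0.016, all 3 above 0 only without WT library 46. The median of the 49 between the 2 sets of MFN2 libraries, -0.0094, became 0.014 in limma-voom, 0.048 with library size alone, 0.030 with the upper quartile and 0.041 with CPM above 1 in every library, and ranged from -0.040 to 0.040 with a library left out.

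Among isozyme ratios, libraries 41 to 47 alone gave -0.94 for Ldhb over Ldha, 0.48 for Pfkl over Pfkm (both with an exact permutation p of 0.0286) and 0.048 for Hk2 over Hk1. Library 43 carried the first 2, which were -0.20 and 0.21 with libraries 41 and 42 alone against WT (exact p = 0.0667 and 0.133). With a library left out, Ldhb over Ldha ranged from -0.55 to -0.22, Pfkl over Pfkm from 0.11 (without library 43) to 0.27, Eno2 over Eno1 from -0.079 to 0.036, Hk2 over Hk1 from -0.15 to 0.046, Pfkp over Pfkm from 0.19 to 0.26 and Pgam2 over Pgam1 from -0.22 to 0.99. Pfkp over Pfkm passed 0.05 only without library 41 (p = 0.0182) or 42 (p = 0.0273; both exact).

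No paired analysis was possible because the labels and the study's methods do not say which of these animals were littermates. Depth limits genes near 1 CPM, such as Slc16a3 and Pgam2.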

Other observations

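Genes of the pentose phosphate pathway, which draws on glucose 6-phosphate to make NADPH, and other genes of glycolysis and the TCA cycle were followed beside the 49. Of the 8 pentose phosphate genes, 0 passed the FDR threshold between MFN2 and WT animals, and 6 fold changes were negative. Pgd, which makes the second NADPH of the pathway, was 25.8, 25.5, 26.005 and 24.4 CPM in WT libraries and 20.6 to 23.8 CPM in all 8 MFN2 libraries, at a log2 fold change of -0.22 ± 0.060 (edgeR, adjusted p = 0.254). Its groups did not overlap, and 1.07% of all genes tested lay wholly lower. G6pdx, the entry enzyme, ranged from 41.3 to 46.96 CPM in WT and from 22.1 to 44.4 CPM in MFN2 libraries (-0.28 ± 0.14, adjusted p = 0.353), and Tkt, transketolase, was at -0.22 ± 0.11. In libraries 72 to 76 against WT, 3 of 8 were called, all lower (G6pdx, Pgd and Tkt), where 23.5% of all genes tested were called, 12.2% as lower and 11.4% as higher.

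Of 20 other glycolysis genes, 12 were tested and 0 called between genotypes. In libraries 72 to 76 against WT, 4 of the 12 were called, Bsg (0.19, adjusted p = 0.0363) and Pgm2 (0.46, adjusted p = 0.00638) as higher and Aldoc (-0.22, adjusted p = 0.0288) and Tigar (-0.33, adjusted p = 0.00611) as lower, against 23.5% of all genes. Tigar, a phosphatase that lowers fructose 2,6-bisphosphate, was 27.8, 25.3, 30.5 and 28.7 CPM in WT and 19.2 to 24.8 CPM in MFN2 libraries, again without overlap (-0.32 ± 0.080, adjusted p = 0.254). Slc16a6, a monocarboxylate transporter family gene, was at -0.36 ± 0.13 and Pgm2 at 0.32 ± 0.13 (adjusted p = 0.278 and 0.301). Of 23 other pyruvate and TCA cycle genes, 22 were tested and 0 called, led by the malic enzyme Me1 (-0.31 ± 0.13, adjusted p = 0.311), Ogdhl (-0.15 ± 0.076) and Slc25a11 (-0.11 ± 0.056). Idh1, the NADP-dependent isocitrate dehydrogenase of the cytosol, rose in libraries 72 to 76 against WT by 0.29 ± 0.084 (adjusted p = 0.0262), as did Idh3a and Idh3g, and Got2, the mitochondrial aspartate aminotransferase, was at 0.15 ± 0.049 (adjusted p = 0.0430). Idh1 and Got2 were 2 of 22 genes called there (9.09%), both higher, a share under the 23.5% of all genes.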
